A study of Mus musculus with 35 samples.

Results

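The comparison described here sets all 20 libraries of long-term haematopoietic stem cells (LT-HSCs) from mice with JAK2V617F against all 15 from mice without it, and its members are those 35 of the 35 libraries in the study. The JAK2V617F libraries fall into JAK2V617F with Ezh2 intact (6), JAK2V617F Ezh2+/- (8) and JAK2V617F Ezh2-/- (6), and the libraries without the mutation into SclCre (4), SclCre Ezh2+/- (7) and SclCre Ezh2-/- (4). Every mouse carried SclCre, a Cre recombinase driven by a promoter of the blood stem-cell factor Scl, so the groups do not differ in carrying it. The labels do not say how JAK2V617F was introduced, on how many alleles, or the ages of the mice. Each library was made from RNA of 1000 sorted cells, and no label ties a library to an animal, so p-values measure the spread between libraries, which may be in part technical. The pooled fit held JAK2V617F, the Ezh2 genotype and the batch as additive terms, and it asks for 1 average change of each gene over the 3 Ezh2 genotypes.

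JAK2 is the tyrosine kinase bound to the receptors for erythropoietin and several other cytokines, and on activation it phosphorylates STAT transcription factors, which enter the nucleus and switch on target genes. The V617F substitution lies in the pseudokinase domain that normally restrains the enzyme, leaves it active with little or no cytokine, and is the most frequent driver of myeloproliferative neoplasms, which start in a stem cell. LT-HSCs are mostly quiescent cells that hold their state through cytokine signals and a network of transcription factors. Ezh2 is the catalytic subunit of the Polycomb complex PRC2, which methylates histone H3 at repressed genes, and here it only splits the libraries into genotypes.

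The libraries held 13.6 to 48.6 M counts (M is 1000000, median 24.9 M), with medians of 30.9 M in JAK2V617F and 21.8 M in SclCre libraries. The groups were spread over both batches, with 8 JAK2V617F and 6 SclCre libraries in batch 1 and 12 and 9 in batch 2, and over both sexes, with 12 females and 8 males with JAK2V617F and 8 females and 7 males without it. Sex was uneven within genotypes: all 4 SclCre libraries with Ezh2 intact were female, set against 4 males and 2 females with JAK2V617F, and in batch 1 the Ezh2-/- libraries were 3 females with JAK2V617F and 1 male without it. In batch 2 with Ezh2 intact (4 JAK2V617F males, 2 SclCre females) and in batch 1 with Ezh2-/-, sex and the mutation cannot be told apart. In batch 1 with Ezh2 intact, the 2 JAK2V617F and 2 SclCre libraries were all female. With sex as a term in the pooled fit 1916 genes were higher and 1903 lower. In the SclCre Ezh2+/- group, batch 1 replicate 1 went against its label for sex and batch 1 replicate 3 against its label for Ezh2, and the main counts are also given without these 2 doubted libraries. The 17 genes of the LT-HSC marker list summed to 3512 to 5377 CPM (counts per 1000000 counts) in JAK2V617F and 5259 to 6999 CPM in SclCre libraries. The list also holds Cd34, Flt3 and Cd48, and LT-HSCs carry little Cd34, so the sum alone does not show stem-cell identity. Jak2, whose counts do not tell mutant from normal RNA, had a lowest, median and highest level of 48.3, 61.9 and 133.5 CPM in JAK2V617F and 33.1, 54.1 and 73.8 CPM in SclCre libraries. The ranges overlapped, and 8 of 20 JAK2V617F libraries lay above every SclCre library (log2 0.52 ± 0.09 SE, edgeR adjusted p = 1.57e-05). The change of Jak2 was 0.78 within batch 1 and 0.36 within batch 2.

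In JAK2V617F libraries many genes for building and powering a cell had slightly higher levels relative to all counts. These were genes such as ribosome assembly factors, respiratory chain, proteasome and nucleotide synthesis genes. Cytosolic ribosomal proteins did not shift as a list. Many stem-cell regulators and Hox genes had lower levels, and the amount of RNA per cell was not measured. The list medians ran on the log2 scale from 0.20 for the respiratory chain to 0.48 for nucleotide synthesis, and were -0.42 for stem-cell identity and -0.69 for Hox genes, each with the same sign with Ezh2 intact, Ezh2+/- and Ezh2-/-. Genes of mitosis rose by much more, with a median log2 change of 1.84. In all, 3811 of 14945 genes tested were called at an edgeR adjusted p under 0.05 (25.5%), of which 1906 were higher (12.8%) and 1905 lower (12.7%) in JAK2V617F libraries. Of those called, 3029 had a pooled change under 2-fold (an absolute log2 change under 1), and 782 changed more.

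A change was named small and consistent when the gene was called in the pooled fit, moved by less than 2-fold, had the same sign in the 3 Ezh2 genotypes, each estimated from its own libraries in 1 fit of all 6 groups, and had estimates there that lay within 0.5 of each other on the log2 scale. This held for 2447 genes (16.4% of those tested), 1300 of them higher (8.7%) and 1147 lower (7.67%). Their median change was 1.26-fold up (log2 0.33) and 0.77-fold (log2 -0.39), and 1158 of the higher and 953 of the lower ones moved by less than 1.5-fold. Across all genes tested the median log2 change was -0.017. The rule depends on precision and so favours abundant RNA: the small and consistent genes had a median mean level of 6.64 (higher) and 5.81 (lower) log2 CPM, against 4.65 for all genes tested. At the limits of the rule, Ncf4 was taken with an absolute log2 change of 0.9993 and Ncf1 was not, at 1.003, while Ampd3 was taken with a spread over genotypes of 0.4998 and Rad18 was not, at 0.5002.

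Most of these genes could be called only by pooling. Of the 2447, 1469 (60%) were called within none of the 3 Ezh2 genotypes, 606 (24.8%) within 1, 245 (10%) within 2 and 127 (5.19%) within all 3. Taken singly, Ezh2-intact libraries gave 780 called genes (5.22%; 3.04% higher, 2.17% lower). Ezh2+/- libraries gave 1384 (9.26%; 4.9% higher, 4.36% lower) and Ezh2-/- libraries 797 (5.33%; 3.08% higher, 2.25% lower). Since the sign in each genotype was part of the rule, agreement was looked at in libraries that had no part in the choice. Of 462 genes called within Ezh2-intact libraries with a change under 2-fold, 447 (96.8%) had the same sign within Ezh2+/- libraries and 447 (96.8%) within Ezh2-/- libraries. Of 913 such genes called within Ezh2+/- libraries, 897 (98.2%) had the same sign with Ezh2 intact and 872 (95.5%) with Ezh2-/-. Of 458 called within Ezh2-/- libraries, 437 (95.4%) had the same sign with Ezh2 intact and 440 (96.1%) with Ezh2+/-. Over all genes tested the sign was shared by 70.4% between Ezh2 intact and +/-, 68.2% between intact and -/-, and 68% between +/- and -/-, and by 53.3% in all 3. The same held between batches: of 947 genes called in batch 1 alone (1371 in all, 9.17%) with a change under 2-fold, 856 had the same sign in batch 2, and of 1882 called in batch 2 alone (2515 in all, 16.8%), 1641 had the same sign in batch 1, against 66.5% of all genes tested. The genotypes share the estimate of the spread and the batch term of the fit, but no library.

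**Figure D1:**
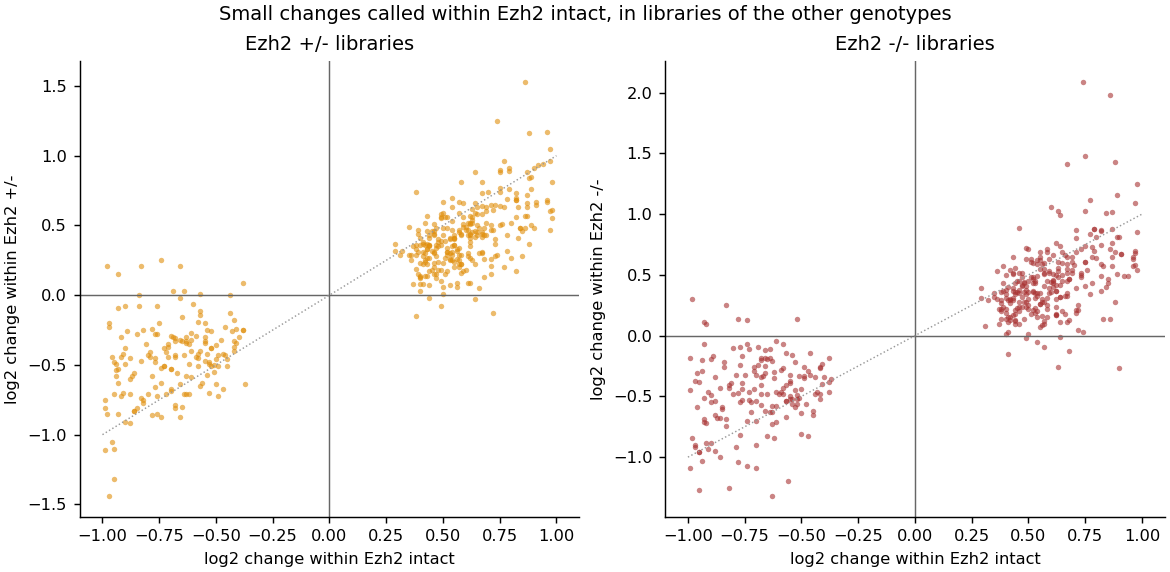
Log2 change of JAK2V617F over SclCre within Ezh2+/- libraries (left) and within Ezh2-/- libraries (right), both on the vertical axis, for the 462 genes called within Ezh2-intact libraries with a change under 2-fold there (horizontal axis). Each point is a gene, the dotted line marks equal change, and 447 of 462 points in each panel lie on the same side of 0 on both axes.

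A few of the small changes separated the libraries completely. Over all genes tested, 32 had every JAK2V617F library above every SclCre library (0.214%) and 21 had every one below (0.141%). Most of these were large changes, but 7 of the 2447 small and consistent genes were among them. This was no larger a share than that over all genes tested. Among these 7, Prdx3, Nudt5 and Tmem98 were higher, and St3gal1, Plcb2 and Lmo2 lower. For the 4 of these 7 with an entry in RefSeq's promoter table (GRCm38.p6), the 250 bases before the start of the gene are shown, because they are genes whose libraries did not overlap. They lie at chr19:60874539-60874788 (minus strand) for Prdx3, chr2:5844784-5845033 (plus) for Nudt5, chr11:80810116-80810365 (plus) for Tmem98 and chr2:118728439-118728688 (minus) for Plcb2. Capitals mark matches, on either strand, to the 8 motifs searched: CCAAT, GGCGGGAA (E2F), TTTGAA (CHR), TTCNNNGAA (STAT), CACGTG (E-box), CCGGAAGT (ETS), the NRF1 motif and AGATAAGG (GATA).
Prdx3: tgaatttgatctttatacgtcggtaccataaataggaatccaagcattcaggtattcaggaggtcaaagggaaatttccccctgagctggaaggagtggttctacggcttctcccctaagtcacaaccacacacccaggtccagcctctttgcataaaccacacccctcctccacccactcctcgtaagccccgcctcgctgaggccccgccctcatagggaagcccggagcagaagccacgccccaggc
Nudt5: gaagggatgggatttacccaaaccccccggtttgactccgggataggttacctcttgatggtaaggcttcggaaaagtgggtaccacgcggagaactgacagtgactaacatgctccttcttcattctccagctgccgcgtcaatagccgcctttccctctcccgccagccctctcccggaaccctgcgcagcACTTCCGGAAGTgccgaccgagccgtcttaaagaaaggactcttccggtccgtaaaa
Tmem98: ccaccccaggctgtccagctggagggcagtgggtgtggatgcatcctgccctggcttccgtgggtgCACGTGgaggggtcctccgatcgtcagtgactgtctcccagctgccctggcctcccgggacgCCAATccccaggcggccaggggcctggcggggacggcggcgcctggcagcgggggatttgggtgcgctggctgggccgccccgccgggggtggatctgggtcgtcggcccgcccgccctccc
Plcb2: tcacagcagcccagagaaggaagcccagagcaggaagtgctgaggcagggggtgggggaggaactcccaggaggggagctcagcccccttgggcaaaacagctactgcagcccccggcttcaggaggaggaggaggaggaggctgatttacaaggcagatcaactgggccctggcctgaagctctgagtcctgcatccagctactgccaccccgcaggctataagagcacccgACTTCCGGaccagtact
The windows differ in what they hold. Nudt5 has the ETS letters on both strands, overlapping each other, 46 to 57 bases before the start, Plcb2 has them once, 10 to 17 bases before it, Tmem98 has one CCAAT and one CACGTG, and Prdx3 has none of the 8. The STAT letters are in none of the 4 windows. Across the 250 bases before the start of all small and consistent genes with an entry, the ETS letters were in 6.92% of 1069 higher and 3.65% of 903 lower genes, against 5.53% of 11708 genes tested and 2.93% of all 27025 promoters in the table. CCAAT was in 41.3% of the higher and 33.2% of the lower ones, against 36.2% of those tested and 34.5% of all. The STAT letters were in 6.45% of the higher and 5.2% of the lower ones, against 6.06% of those tested and 7.18% of all. CACGTG was in 10.1% and 7.86% (8.18% of those tested, 6.05% of all), and GGCGGGAA in 4.3% and 3.43% (3.41% of those tested, 1.88% of all). A match to such letters is a description and shows no bound factor.

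Lmo2, a bridging protein in transcription factor complexes that blood stem cells need, had a lowest, median and highest level of 551, 693 and 846 CPM in JAK2V617F and 875, 1063 and 1278 CPM in SclCre libraries. All 20 JAK2V617F libraries thus lay below all 15 SclCre libraries. It changed by -0.61, -0.59 and -0.71 on the log2 scale with Ezh2 intact, +/- and -/- (pooled -0.63 ± 0.06 SE, edgeR adjusted p = 5.87e-10). St3gal1, a sialyltransferase of O-linked glycans, had 60.8, 88.2 and 107.0 CPM in JAK2V617F against 124.5, 158.8 and 196.4 CPM in SclCre libraries (log2 -0.89 ± 0.07 SE, edgeR adjusted p = 5.32e-11). Plcb2, a phospholipase C that acts behind G protein-coupled receptors, had 112, 171 and 211.7 CPM in JAK2V617F against 211.8, 258 and 357 CPM in SclCre libraries, so that the highest JAK2V617F library nearly met the lowest SclCre library (log2 -0.69 ± 0.07 SE, edgeR adjusted p = 5.63e-10).

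Prdx3, a mitochondrial peroxiredoxin that removes hydrogen peroxide, had a lowest, median and highest level of 175, 207 and 284 CPM in JAK2V617F and 126, 146 and 170.2 CPM in SclCre libraries. This was the smallest change of the 7 (log2 0.48 ± 0.05 SE, edgeR adjusted p = 9.74e-09), with 0.61, 0.43 and 0.45 in the 3 genotypes. Nudt5, a hydrolase of ADP-ribose, had 52.2, 64.9 and 99.3 CPM in JAK2V617F and 28.7, 41.5 and 48.3 CPM in SclCre libraries (log2 0.73 ± 0.09 SE, edgeR adjusted p = 3.89e-08). Tmem98, a membrane protein, had 87.6, 99.7 and 133.5 CPM in JAK2V617F and 16.7, 57.6 and 86.7 CPM in SclCre libraries (log2 0.91 ± 0.11 SE, edgeR adjusted p = 1.12e-07). Its SclCre libraries were the more spread group.

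**Figure D2:**
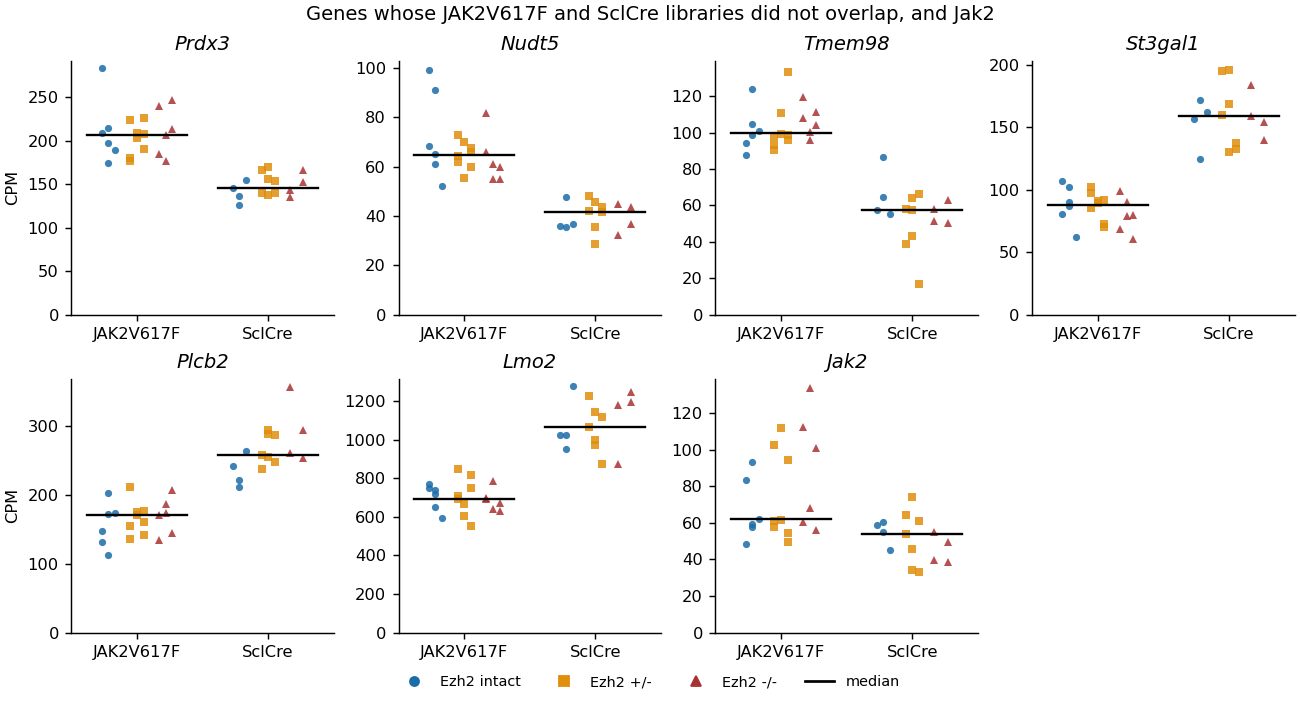
Level in every library (CPM, vertical axis from 0) of 6 small and consistent genes whose JAK2V617F libraries (left in each panel, 20) and SclCre libraries (right, 15) did not overlap, and of Jak2, whose libraries did. Colour and shape give the Ezh2 genotype and the black line the median, which is 693 CPM for Lmo2 in JAK2V617F and 1063 CPM in SclCre libraries.

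**Figure D3:**
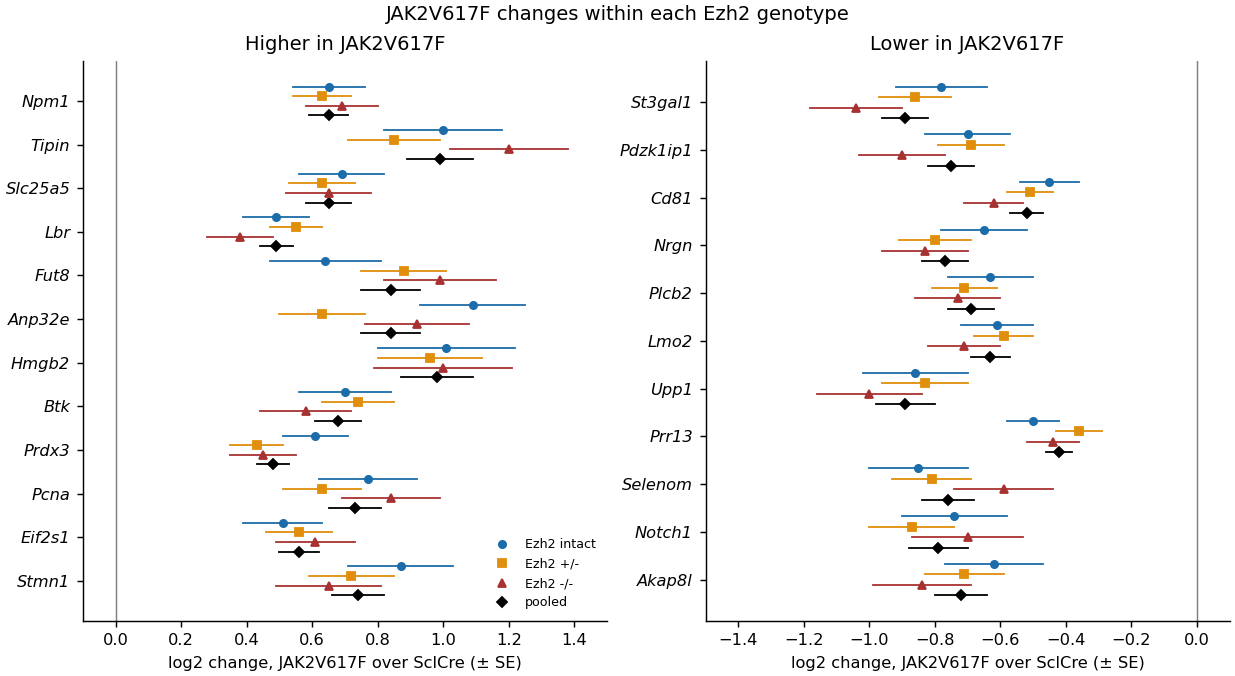
Log2 change of JAK2V617F over SclCre (horizontal axis, bars ± SE) within Ezh2-intact, Ezh2+/- and Ezh2-/- libraries and in the pooled fit, for 12 higher (left) and 11 lower (right) small and consistent genes. They are among those with the smallest p at a mean level of at least 5 log2 CPM. No bar reaches 0, and for Lmo2 the 3 genotypes lie between -0.71 and -0.59.

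Npm1, a nucleolar chaperone of ribosome assembly, had the smallest p among the small and consistent rises of named genes with a mean level of at least 5 log2 CPM. It had 565, 784 and 942 CPM in JAK2V617F and 366, 518 and 609 CPM in SclCre libraries. Of the 20 JAK2V617F libraries 19 lay above every SclCre library (log2 0.65 ± 0.06 SE, edgeR adjusted p = 1.75e-10), and the change was 0.65, 0.63 and 0.69 in the 3 Ezh2 genotypes. The ribosome biogenesis list around it had 22 of 49 members higher and 1 lower, all small and consistent, with a median log2 change of 0.21 (all genes tested: 12.8% higher, 12.7% lower, median -0.017). Dkc1, the pseudouridine synthase of ribosomal RNA, rose by 0.34 ± 0.06 and the nucleolar helicase gene Ddx21 by 0.36 ± 0.06 on the log2 scale (SE; edgeR adjusted p = 1.62e-05 and 1.74e-05). The 1 fall, of Imp3, a small-subunit processing factor named after its value was seen, was small (log2 -0.22 ± 0.08 SE, edgeR adjusted p = 0.0492), and no gene of the list was lower in either batch alone. The ribosomal proteins themselves did not shift as a list: of 48 cytosolic ones 2 were higher and 4 lower, with a median of 0. Rpl15 rose by 0.48 ± 0.07 and Rplp0 by 0.14 ± 0.04, while Rpl13 fell by 0.26 ± 0.06 on the log2 scale (SE; edgeR adjusted p = 3.82e-06, 0.0153 and 0.000847). Rpl13 was called in neither batch alone, at -0.35 and -0.19, and Rplp0 was not called in batch 1 alone, at 0.08. The counts of 2 and 4 became 5 and 2 with offsets by GC content and 4 became 10 with offsets by gene length.

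Translation factors and tRNA synthetases, which load amino acids onto tRNAs, had 17 of 38 members higher and 2 lower, with a median of 0.20. Eif2s1, the alpha subunit of the initiation factor eIF2, had 163, 193 and 256 CPM in JAK2V617F and 119, 132 and 177 CPM in SclCre libraries, and 18 of 20 lay above every SclCre library (log2 0.56 ± 0.06 SE, edgeR adjusted p = 1.3e-08). Of 18 synthetases, 10 rose and 1 fell. Tars, for threonine, moved by 0.44, 0.43 and 0.43 in the 3 genotypes (pooled 0.43 ± 0.07 SE, edgeR adjusted p = 6.28e-06), and Kars, for lysine, by 0.30, 0.43 and 0.43 (pooled 0.39 ± 0.07 SE, edgeR adjusted p = 2.05e-05).

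The mitochondrial lists moved by small amounts and in 1 direction. Of 66 respiratory chain and ATP synthase genes, 36 were higher and 0 lower in the pooled fit, all 36 small and consistent, with a median of 0.20. All 5 complexes took part: 11 of 28 tested genes of complex I, 3 of 4 of complex II, 4 of 8 of complex III, 7 of 10 of cytochrome c oxidase and 10 of 15 of the ATP synthase rose. The ATP synthase stalk gene Atp5pb had 209, 246 and 283 CPM in JAK2V617F and 154, 189 and 229 CPM in SclCre libraries, and its change was 0.38, 0.36 and 0.36 in the 3 genotypes (pooled 0.37 ± 0.05 SE, edgeR adjusted p = 1.98e-06). Its call was lost in batch 1 alone, at 0.34. Ndufv1, of the NADH-binding part of complex I, rose by 0.35 ± 0.06 on the log2 scale (SE, edgeR adjusted p = 1.04e-05). Of 42 genes of the citrate cycle and mitochondrial import 22 were higher and 0 lower (median 0.19), and of 40 of the mitochondrial ribosome 17 and 0 (median 0.20). Slc25a5, which exchanges ADP for ATP across the inner membrane, had 613, 769 and 954 CPM in JAK2V617F and 381, 479 and 662 CPM in SclCre libraries (log2 0.65 ± 0.07 SE, edgeR adjusted p = 2.78e-09). Idh3a and Idh3g, subunits of the isocitrate dehydrogenase of the citrate cycle, rose by 0.55 ± 0.07 and 0.37 ± 0.05 on the log2 scale (SE; edgeR adjusted p = 5.27e-07 and 5.88e-07), and Mrpl18 of the mitochondrial ribosome by 0.52 ± 0.08 (SE, edgeR adjusted p = 1.42e-05).

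Within batches these counts were lower, with fewer libraries, and the medians similar. In the respiratory chain list 12 genes were higher and 1 lower in batch 1 alone and 19 and 0 in batch 2 alone, with medians of 0.22 and 0.20. At an unadjusted p under 0.05 the edgeR counts over all libraries were 44 higher and 0 lower for the respiratory chain, and DESeq2 called 34 and 0. The citrate cycle and import list had 7 and 14 higher, with medians of 0.20 in both, and the mitochondrial ribosome 3 and 9 higher, with medians of 0.16 and 0.24. At an unadjusted p under 0.05 these lists had 24 and 23 members higher and 0 lower by edgeR, and DESeq2 called 22 and 19 higher and 0 lower.

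The proteasome, the complex that degrades ubiquitin-tagged proteins, had the largest share of small and consistent members of any list. Of 32 genes 25 (78.1%) were higher and 0 lower, with a median of 0.23. Small and consistent rises made up 8.7% of all genes tested and 20.5% of the third with the highest mean level. The rises covered the core (6 of 7 alpha and 5 of 7 beta subunit genes) and the cap (5 of 6 ATPase and 8 of 11 other regulatory genes). Psmb7, a catalytic beta subunit, had 81.8, 111.0 and 129.7 CPM in JAK2V617F and 62.1, 75 and 91.8 CPM in SclCre libraries, 19 of 20 above every SclCre library (log2 0.51 ± 0.07 SE, edgeR adjusted p = 6.41e-07). Psmd14, the deubiquitinase of the cap, rose by 0.50 ± 0.08 and the alpha subunit gene Psma1 by 0.38 ± 0.06 on the log2 scale (SE; edgeR adjusted p = 4.1e-06 and 5.76e-06). In batch 1 alone 6 were higher and 2 lower and in batch 2 alone 15 and 0, with medians of 0.24 in both. Over all libraries 26 were higher and 0 lower by edgeR at an unadjusted p under 0.05, and DESeq2 called 24 and 0. Of the chaperones, all 5 tested genes of the cytosolic chaperonin, which folds actin and tubulin, rose, among them Tcp1 (0.50 ± 0.06), Cct8 (0.40 ± 0.05) and Cct5 (0.32 ± 0.05 on the log2 scale, SE, with edgeR adjusted p of 1.52e-07, 3.35e-07 and 2.92e-06). The whole list of chaperones and the unfolded protein response had 12 of 30 higher and 3 lower.

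Nucleotide synthesis moved more. Of 33 genes 26 were higher and 0 lower, 20 of them small and consistent, with a median log2 change of 0.48 (28 and 0 by edgeR at an unadjusted p under 0.05, 26 and 0 by DESeq2). Prps2, which makes the ribose phosphate donor of nucleotides, rose by 0.57 ± 0.09 and the purine enzyme gene Pfas by 0.40 ± 0.06 on the log2 scale (SE; edgeR adjusted p = 4.3e-06 and 4.6e-06). Glycolysis and the pentose phosphate pathway had 10 of 29 higher and 2 lower (median 0.12). Tkt, the transketolase, had 747, 968 and 1053 CPM in JAK2V617F and 322, 676 and 885 CPM in SclCre libraries (log2 0.61 ± 0.08 SE, edgeR adjusted p = 1.03e-06), with 1.01 in batch 1 and 0.35 in batch 2. Eno1, the enolase, rose by 0.41 ± 0.06, and Pdk3, a kinase that inhibits pyruvate dehydrogenase, by 0.52 ± 0.06 on the log2 scale (SE; edgeR adjusted p = 1e-06 and 1.02e-07). Cholesterol and fatty acid synthesis had 6 of 28 higher and 1 lower, with a median of 0.15. Scd2, a desaturase, rose by 0.47 ± 0.09 (SE, edgeR adjusted p = 0.000233), and lost its call in batch 2 alone.

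**Figure D4:**
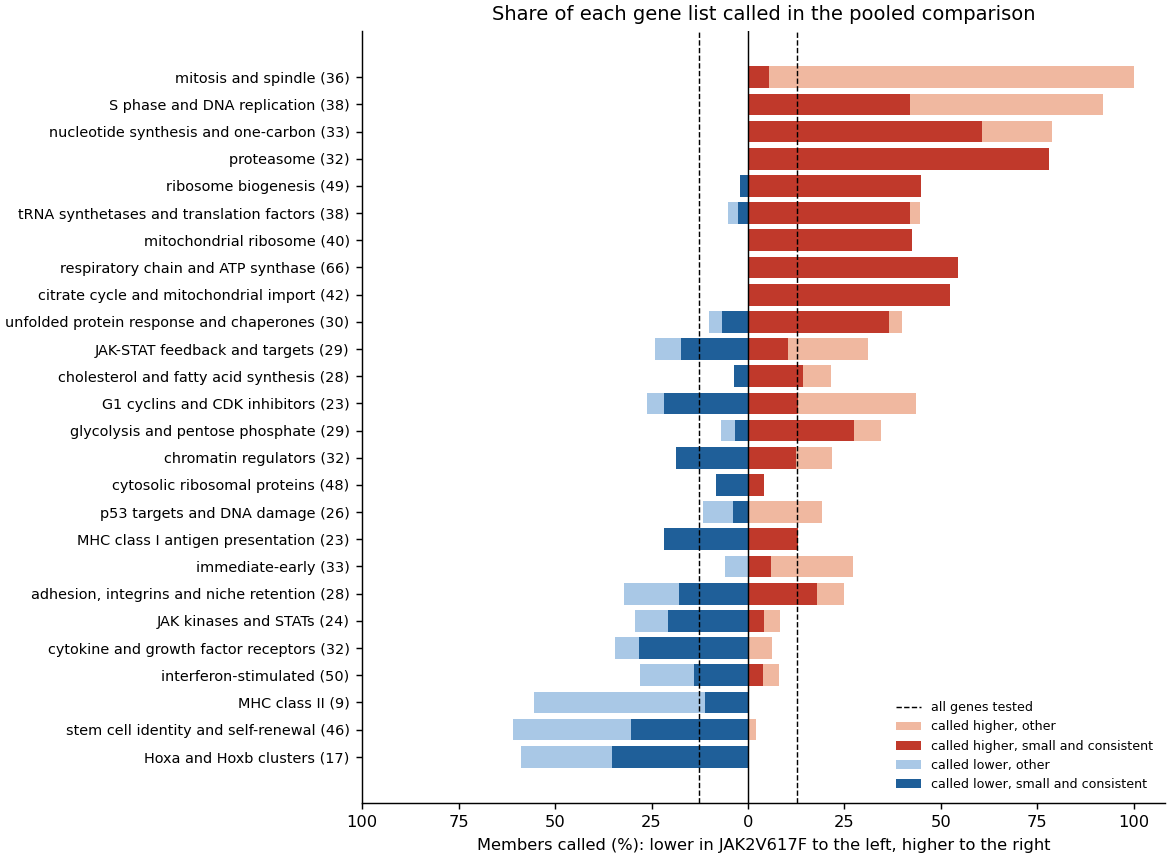
Share of the tested members of each gene list (number in brackets) that were called lower in JAK2V617F (bars to the left) or higher (to the right), in percent, with the small and consistent ones in dark colour. Dashed lines mark the shares over all genes tested, 12.7% lower and 12.8% higher, and the proteasome bar of 78.1% is dark throughout.

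Replication and mitosis rose together but by different amounts. Of 38 genes of S phase and DNA replication 35 were higher and 0 lower, 16 of them small and consistent, with a median of 0.83, while all 36 mitosis genes were higher with a median of 1.84 and only 2 within the small range. At an unadjusted p under 0.05 edgeR gave 36 and 0 for S phase and 36 and 0 for mitosis, and DESeq2 called 35 and 36 higher and 0 lower. Pcna, the sliding clamp of DNA polymerases, had 54.7, 74.7 and 94.9 CPM in JAK2V617F and 34.3, 46.7 and 57.8 CPM in SclCre libraries, 19 of 20 above every SclCre library (log2 0.73 ± 0.08 SE, edgeR adjusted p = 1.23e-08). All 6 genes of the Mcm replicative helicase rose, by a median of 0.74, among them Mcm6 (0.73 ± 0.09 SE, edgeR adjusted p = 8.02e-08). Fen1, the flap nuclease, rose by 0.72 ± 0.09, and Tipin, which guards stalled replication forks, by 0.99 ± 0.10 on the log2 scale (SE; edgeR adjusted p = 1.52e-07 and 8.13e-10). The 2 small mitotic rises were of Smc2, a condensin subunit (0.80 ± 0.11), and Kif23, a kinesin of cell separation (0.45 ± 0.12; edgeR adjusted p = 7.79e-07 and 0.00703). The call of Kif23 was lost in batch 1, in batch 2 and in females taken alone, at 0.44, 0.40 and 0.38. Chromatin proteins of dividing cells moved with these lists: Hmgb2 rose by 0.98 ± 0.11, and Anp32e, which removes the histone variant H2A.Z, by 0.84 ± 0.09 on the log2 scale (SE; edgeR adjusted p = 7.82e-09 and 7.54e-09). Stmn1, which destabilises microtubules, had 80.7, 105.0 and 137.7 CPM in JAK2V617F and 44.0, 65.8 and 93.7 CPM in SclCre libraries (log2 0.74 ± 0.08 SE, edgeR adjusted p = 1.33e-08).

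Genes of the G1 decision moved in both directions, with 10 of 23 higher and 6 lower. Cdk4, the kinase partner of D cyclins, had 444.5, 559.6 and 643.6 CPM in JAK2V617F and 308.4, 391.6 and 484.7 CPM in SclCre libraries (log2 0.47 ± 0.06 SE, edgeR adjusted p = 6.38e-08). Its partner Ccnd1, cyclin D1, moved the other way, with 16.2, 26.9 and 51.6 CPM against 33.5, 49.4 and 83.9 CPM (log2 -0.90 ± 0.13 SE, edgeR adjusted p = 1.71e-06), and the cyclin genes Ccnd2 and Ccnd3, named after their values were seen, fell by 0.22 and 0.23. Rbl2, a pocket protein that represses cell-cycle genes in resting cells, fell by 0.61 ± 0.10 on the log2 scale (SE, edgeR adjusted p = 1.21e-05), a call lost in batch 1 alone at -0.51. In the list of p53 targets and DNA damage, 5 of 26 were higher (19.2%) and 3 lower (11.5%), against 12.8% and 12.7% over all genes tested. The stress-response gene Sesn1 was the 1 small and consistent member (log2 -0.44 ± 0.10 SE, edgeR adjusted p = 0.00075).

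Stem-cell identity genes shifted down. Of 46 genes 28 (60.9%) were lower and 1, Socs2, higher, against 12.7% lower over all genes tested, and 14 falls were small and consistent. The median was -0.42, and -0.46, -0.39 and -0.44 in the 3 Ezh2 genotypes. In batch 1 alone 17 were lower and in batch 2 alone 32, with medians of -0.36 and -0.48. Averaged over the list as log2(CPM + 1), the level was 6.53 to 6.86 in JAK2V617F and 6.92 to 7.32 in SclCre libraries, so all 20 lay below all 15. Beside Lmo2, Pdzk1ip1, a small membrane protein abundant in stem cells, had 208.5, 322 and 448 CPM in JAK2V617F and 328, 564 and 789.9 CPM in SclCre libraries (log2 -0.75 ± 0.07 SE, edgeR adjusted p = 1.83e-10). Procr, the surface receptor EPCR by which stem cells are often sorted, had 61.8, 99.7 and 133 CPM in JAK2V617F and 103, 174 and 274 CPM in SclCre libraries (log2 -0.88 ± 0.10 SE, edgeR adjusted p = 2.03e-08). Cd34, which mouse LT-HSCs carry little of and their progeny more, went the other way, with 159.5, 322 and 523 CPM against 119.6, 198 and 268.5 CPM (log2 0.81 ± 0.11 SE, edgeR adjusted p = 8.19e-07). Gata2, a stem-cell transcription factor, fell by 0.28 ± 0.06 on the log2 scale (SE, edgeR adjusted p = 0.000488), and with offsets by GC content its value was -0.15 and it was not called. In batch 1 alone the calls of Cd34 and Gata2 were lost, at 0.50 and -0.29. In bulk RNA, fewer cells of a type and less RNA per cell cannot be told apart, so the share of the sorted cells behind any of these shifts is not known.

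The Hox genes of clusters A and B, transcription factors of stem-cell self-renewal, had 10 of 17 lower and 0 higher, 6 of them small and consistent, with a median of -0.69, and 2 were lower in females alone. At an unadjusted p under 0.05 edgeR gave 12 lower and 0 higher, and DESeq2 called 10 and 0. Hoxa9 had 40.2, 73.0 and 101.7 CPM in JAK2V617F and 62.0, 107.6 and 143.8 CPM in SclCre libraries (log2 -0.69 ± 0.08 SE, edgeR adjusted p = 4.8e-08), and its ranges overlapped. Hoxb5, a marker of LT-HSCs, fell by 0.68 ± 0.12 and Hoxa3 by 0.93 ± 0.18 on the log2 scale (SE; edgeR adjusted p = 5.29e-05 and 0.000181), and both calls were lost in females alone. Chromatin regulators split, with 7 of 32 higher (21.9%) and 6 lower (18.8%), against 12.8% and 12.7% over all genes tested. Ezh1, the paralogue of Ezh2, had 54.0, 80.0 and 120.5 CPM in JAK2V617F and 95.2, 120.9 and 163.9 CPM in SclCre libraries (log2 -0.63 ± 0.09 SE, edgeR adjusted p = 7.84e-07), with -0.57, -0.65 and -0.67 in the 3 genotypes. Cbx7, a reader of the Polycomb mark, fell by 0.83 ± 0.11, while Rbbp4, a histone-binding subunit shared by several complexes, rose by 0.35 ± 0.06 on the log2 scale (SE; edgeR adjusted p = 2.87e-07 and 1.56e-05). Whole-gene Ezh2 counts, which the Ezh2 alleles change by design, were 0.45 ± 0.12 higher on the log2 scale (SE, edgeR adjusted p = 0.00607), with 0.83, 0.41 and 0.14 in the 3 genotypes, so it was not among the consistent genes. The call of Ezh2 was lost in batch 1 alone, at 0.38.

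**Figure D5:**
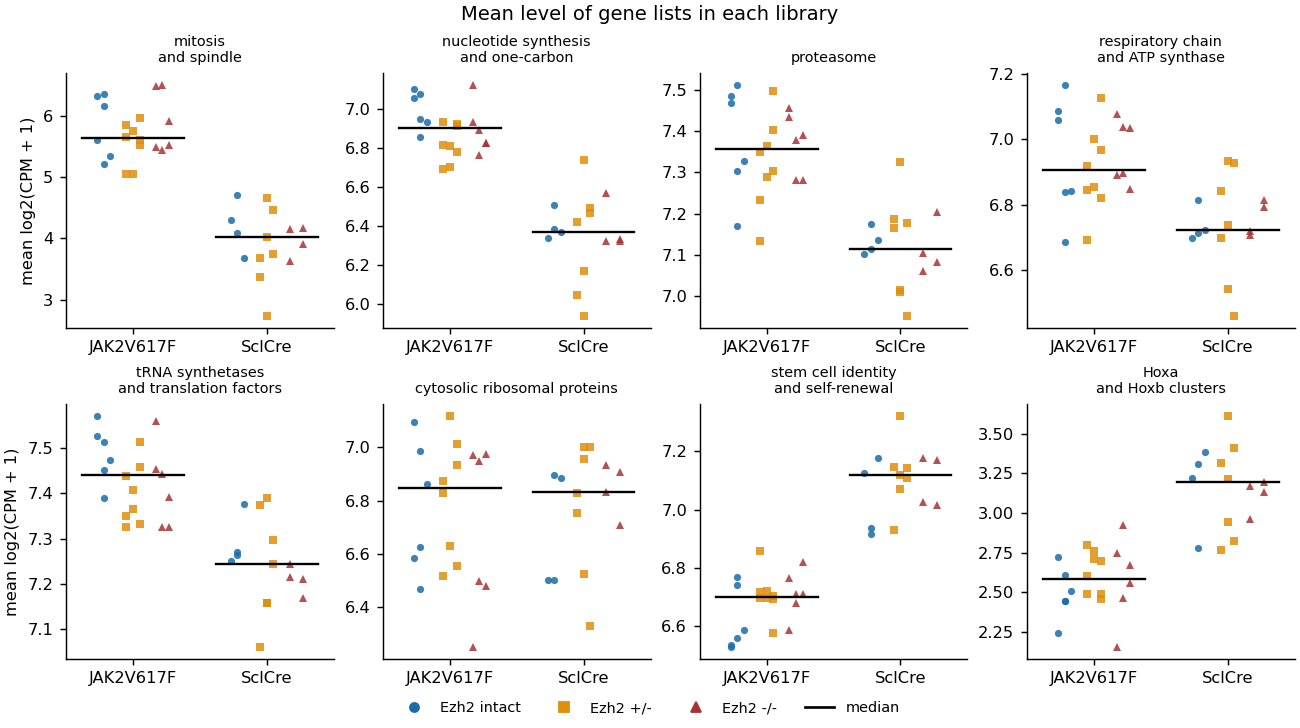
Mean log2(CPM + 1) over the tested genes of 8 lists (vertical axis, scale fitted to each panel) in each JAK2V617F library (left, 20) and each SclCre library (right, 15), with colour and shape for the Ezh2 genotype and the black line for the median. The groups do not overlap for mitosis or stem-cell identity, overlap in part for the proteasome and the respiratory chain, and have medians of 6.85 and 6.83 for cytosolic ribosomal proteins.

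Of 32 cytokine and growth factor receptor genes 11 were lower (34.4%), 9 of them small and consistent, and 2 higher (6.25%). Over all genes tested 12.7% were lower and 12.8% higher. The list had a median of -0.15, and its members ran from -3.37 to 1.91. The mean level over the list was 5.21 to 5.67 log2(CPM + 1) in JAK2V617F and 5.15 to 5.73 in SclCre libraries, and the medians differed by -0.06. Notch1, a receptor of cell-cell signalling, had 14.9, 30.5 and 62.2 CPM in JAK2V617F and 26.4, 54.6 and 93.1 CPM in SclCre libraries (log2 -0.79 ± 0.09 SE, edgeR adjusted p = 9.07e-09). Tnfrsf1b, a receptor for tumour necrosis factor, fell by 0.54 ± 0.09 on the log2 scale (SE, edgeR adjusted p = 2.82e-05). Inside the cell, 7 of 24 genes of kinases, STATs and adaptors were lower (29.2%) and 2 higher (8.33%). The higher ones were Jak2 and the lipid kinase gene Pik3cd, the second named after its value was seen. Jak3, the partner of the common gamma chain, had 72.7, 134.0 and 167.6 CPM in JAK2V617F and 153.5, 185.1 and 251.2 CPM in SclCre libraries (log2 -0.51 ± 0.08 SE, edgeR adjusted p = 1.62e-05), with -0.87 in batch 1 and -0.30 in batch 2. Stat3 fell by 0.34 ± 0.07 on the log2 scale (SE, edgeR adjusted p = 0.000581), a call lost in batch 2 alone at -0.20. The count of 7 lower genes was 4 without the 2 doubted libraries and also 4 without SclCre Ezh2+/- batch 2 replicate 2 alone.

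Known STAT targets and feedback genes did not share a direction, with 9 of 29 higher (31%) and 7 lower (24.1%) and a median of 0.15. Over all genes tested 12.8% were higher and 12.7% lower. The batches differed, with 4 higher and 4 lower in batch 1 alone, at a median of -0.15. Batch 2 alone had 11 higher and 6 lower, at a median of 0.41. The mean level of the list was 5.85 to 6.53 log2(CPM + 1) in JAK2V617F and 5.67 to 6.35 in SclCre libraries. By this mean 10 JAK2V617F libraries lay above every SclCre library and 0 lay below. The feedback inhibitor gene Socs2 was the strongest of the list and lay outside the small range. It had 99.9, 162 and 312 CPM in JAK2V617F and 18.2, 39.7 and 119.6 CPM in SclCre libraries (log2 2.0 ± 0.17 SE, edgeR adjusted p = 6.94e-11). The small and consistent members included the survival gene Bcl2, lower by 0.44 ± 0.08, and the kinase gene Pim3, lower by 0.78 ± 0.14 on the log2 scale (SE; edgeR adjusted p = 5.89e-05 and 7.67e-05), both of which are known as genes that cytokine signalling raises. Their calls were lost in batch 1 alone, at -0.29 and -0.57. Myc, a growth regulator, had 301, 754 and 1164 CPM in JAK2V617F and 389, 529.7 and 821 CPM in SclCre libraries (log2 0.32 ± 0.11 SE, edgeR adjusted p = 0.0299). This call did not hold: Myc was at -0.16 in batch 1 and 0.64 in batch 2, and lost its call without any 1 of 5 libraries (SclCre batch 2 replicates 2 and 4, SclCre Ezh2+/- batch 2 replicate 2, SclCre Ezh2-/- batch 2 replicate 3 and JAK2V617F Ezh2+/- batch 2 replicate 5, highest edgeR adjusted p = 0.059).

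Btk, a kinase of antigen and cytokine receptor signalling best known from B cells, had 146.4, 203 and 262 CPM in JAK2V617F and 90.4, 131.8 and 159.2 CPM in SclCre libraries, 18 of 20 above every SclCre library (log2 0.68 ± 0.07 SE, edgeR adjusted p = 8.99e-09). Fut8, the core fucosyltransferase of N-linked glycans, had 296, 441.5 and 549 CPM in JAK2V617F and 164, 249.6 and 342 CPM in SclCre libraries (log2 0.84 ± 0.09 SE, edgeR adjusted p = 6.61e-09). Lbr, the lamin B receptor of the nuclear envelope, rose by 0.49 ± 0.05 on the log2 scale (SE, edgeR adjusted p = 4.62e-09). At the cell surface, the tetraspanin gene Cd81 had 578, 631.5 and 750.4 CPM in JAK2V617F and 738, 905 and 1222 CPM in SclCre libraries, 19 of 20 below every SclCre library (log2 -0.52 ± 0.05 SE, edgeR adjusted p = 2.04e-10). Its relative Cd82 fell by 0.82 ± 0.11, while Cd47, the signal that restrains macrophages, rose by 0.31 ± 0.05 on the log2 scale (SE; edgeR adjusted p = 3.83e-07 and 2.92e-06). The call of Cd47 was lost in batch 1 alone, at 0.19. The adhesion list as a whole had 7 of 28 higher (25%) and 9 lower (32.1%), against 12.8% and 12.7% over all genes tested. The calmodulin-binding gene Nrgn, the uridine phosphorylase gene Upp1, the selenoprotein gene Selenom, the nuclear anchoring gene Akap8l and Prr13 fell by 0.77 ± 0.07, 0.89 ± 0.09, 0.76 ± 0.08, 0.72 ± 0.08 and 0.42 ± 0.04 on the log2 scale (SE, edgeR adjusted p of 9.74e-09 or less).

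Interferon-stimulated genes had 14 of 50 lower (28%) and 4 higher (8%), against 12.7% and 12.8% over all genes tested. Their median was -0.15, and their genotype medians were -0.15, -0.24 and 0.05 with Ezh2 intact, +/- and -/-. In batch 1 alone 2 were lower and 1 higher, and in batch 2 alone 8 and 3. The transcription factor gene Irf1 had 178.5, 350.1 and 527 CPM in JAK2V617F and 150.2, 259.5 and 339 CPM in SclCre libraries (log2 0.53 ± 0.11 SE, edgeR adjusted p = 0.000388). Ifi27 rose by 0.54 ± 0.09, and Trim30a fell by 0.27 ± 0.07 on the log2 scale (SE; edgeR adjusted p = 3.17e-05 and 0.00248), and both calls were lost in batch 1 alone. Of 23 genes of MHC class I presentation 5 were lower and 3 higher, all small and consistent, among them the nonclassical class I gene H2-T23 (-0.27 ± 0.05), the loading chaperone Tapbp (-0.34 ± 0.06) and calnexin, Canx (0.28 ± 0.05 on the log2 scale, SE, with edgeR adjusted p of 3.51e-05, 4.92e-05 and 8.04e-05). Of 9 class II genes 5 were lower, and 0 in batch 1 alone. Of 33 immediate-early genes 9 were higher and 2 lower. Egr1, a transcription factor also known from quiescent stem cells, had 774, 1733 and 2512 CPM in JAK2V617F and 719.9, 987 and 1457 CPM in SclCre libraries (log2 0.71 ± 0.10 SE, edgeR adjusted p = 1.4e-06). The median of that list was 0.67, -0.01 and -0.43 in the 3 Ezh2 genotypes.

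Few changes differed between genotypes. The test of the difference called 2 of 14945 genes (0.0134%), the beta-globin copies Hbb-bt and Hbb-b2, whose counts were identical in every library and are a single measurement. Their JAK2V617F change was -0.40, -0.50 and 3.14 with Ezh2 intact, +/- and -/- (edgeR adjusted p of the difference = 0.00754). No gene was called without SclCre Ezh2-/- batch 1 replicate 1, without SclCre Ezh2-/- batch 2 replicate 3, or in either batch alone, with 816, 794, 585 and 817 genes at an unadjusted p under 0.05 by edgeR. Next in order, and not called, were the sulfotransferase gene Chst2 (0.77, 0.94 and 2.90), Socs2 (1.72, 1.56 and 3.06) and the AP-1 gene Jun (1.61, -0.33 and -0.92), at an edgeR adjusted p of 0.0827 each. This test had fewer libraries to a genotype than the pooled fit, and a gene it did not call is not shown to change alike. Among genes with a mean level of at least 3 log2 CPM, the 4 largest rises and 4 largest falls lay outside the small range. Kif14, a mitotic kinesin, rose by 2.67 ± 0.43, Esco2, a cohesin acetyltransferase, by 2.58 ± 0.25, the DNA repair gene Hrob by 2.56 ± 0.49 and Alox5, the leukotriene-forming lipoxygenase, by 2.45 ± 0.47 on the log2 scale (SE, edgeR adjusted p of 0.000129 or less). The largest falls were of the alpha-globin copies, given with the erythroid markers, followed by Meg3 and Cyp26b1. Meg3, an imprinted long noncoding RNA, had 0, 0.436 and 2.40 CPM in JAK2V617F and 14.5, 33.1 and 69.0 CPM in SclCre libraries, and Cyp26b1, which breaks down retinoic acid, 0, 0.532 and 3.38 CPM against 6.18, 24.6 and 61.2 CPM. Both had no overlap between the groups (log2 -5.74 ± 0.43 and -5.16 ± 0.51 SE, edgeR adjusted p = 3.54e-12 and 1.5e-09).

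Some markers of other blood cells were called, and their part in the results above was not tested. Over all genes tested 12.8% were higher and 12.7% lower. Of the erythroid markers 44% were lower. The 18.2% of B cell, 20% of stroma and 20% of T and NK cell markers called lower rested on few genes each. Neutrophil and monocyte markers summed to 1115 to 19207 CPM in JAK2V617F and 939.6 to 8669 CPM in SclCre libraries, with 1 of 29 called, Ms4a3 (log2 1.34 ± 0.49 SE, edgeR adjusted p = 0.0429), and a median of 0.69 over the list. The call of Ms4a3 was lost without any 1 of 16 libraries of both groups (highest edgeR adjusted p = 0.0696). The list median was 0.08 in batch 1 and 1.05 in batch 2. Of 25 erythroid markers 5 were higher and 11 lower. Among the lower ones were the alpha-globin copies Hba-a1 and Hba-a2, whose identical counts are a single measurement that enters the 11 as 2 genes. Their counts were 0 to 32.4 CPM in JAK2V617F and 0.362 to 165.1 CPM in SclCre libraries (log2 -7.15 ± 1.16 SE, edgeR adjusted p = 1.38e-05). The change was -2.41 with Ezh2 intact, where it was not called (edgeR adjusted p = 0.336), and -10.34 and -7.26 with Ezh2+/- and Ezh2-/-. The erythroid sum overlapped widely, at 4032 to 7183 CPM in JAK2V617F and 4355 to 6976 CPM in SclCre libraries, and the defining genes Car1, Slc4a1 and Ermap had a median of 0 over all libraries. Of 23 megakaryocyte and platelet markers 2 were higher and 4 lower, but the batches differed, with 5 higher and 3 lower in batch 1 (median 0.67) and 0 higher and 6 lower in batch 2 (median -0.20). Markers of B cells, T and NK cells, mast cells, endothelium and stroma summed to at most 891 CPM in any library. Endothelial markers had 3 of 13 lower and 0 higher, and their mean level of 2.34 to 2.91 log2(CPM + 1) in JAK2V617F, against 2.71 to 3.19 in SclCre libraries, put 16 of 20 below every SclCre library. B cell markers had 2 of 11 lower and stroma markers 2 of 10, with 0 higher in both. At an unadjusted p under 0.05 edgeR gave 1 endothelial marker higher and 4 lower, and 4 B cell and 2 stroma markers lower. T and NK cell markers had 1 of 10 higher and 2 lower, and mast cell markers 2 of 8 higher and 2 lower. In B cells Ms4a1, Pax5, Ebf1, Rag1 and Rag2, and in T cells Cd3d, Cd3e and Cd3g, had a median of 0.

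The small and consistent genes also differed in length and base composition. The higher ones had a median length of 2356 bases and a transcript GC content of 47.3%, against 3335 bases and 52.3% for the lower ones, and 2721 bases and 49.7% for all genes tested. Of the third of genes with the highest GC content 5.33% were small and consistent higher and 10.8% lower, and of the third with the lowest 12.4% and 5.69%. With offsets for GC content in each library, 1202 higher and 1126 lower genes were small and consistent, and of the original 2447 genes 2446 had the same sign and 2011 were still called. With offsets for gene length the counts were 1337 and 1116, with 2447 of the same sign and 2168 still called. Without the 2 doubted libraries the counts were 1203 and 1017, with 2447 of the same sign and 2123 still called.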

How the data were processed

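The deposited file held whole-number counts per gene for 35 libraries, which the authors made by aligning reads with STAR to mm9, per the submitters' processing notes. For its version, and for how reads were assigned to genes or strands, no source was at hand. A row for an exon part of Ezh2 (at most 0.000935% of counts) was left out. Symbols for 19075 of 19138 gene IDs came from RefSeq (GRCm38.p6, names only), and 63 had none. After the low-count filter 14945 genes were tested and 4193 were not, 41 of them with no count. Libraries were scaled by TMM (factors 0.937 to 1.062) and fitted with edgeR 4.0.16 in R 4.3.3 by the quasi-likelihood test with Benjamini-Hochberg adjustment over all genes tested (30 residual degrees of freedom). The script was tested on simulated data. Alternatives used limma 3.58.1 and DESeq2 1.42.0. Named genes were Jak2 and Ezh2, the 12 higher and 12 lower small and consistent genes with the smallest p at a mean level of at least 5 log2 CPM, up to 3 small and consistent members of each list, and the few with the largest changes or differences between genotypes. Predicted genes, RIKEN clones, genes without a symbol, Y-linked genes and Xist were left out of these choices. A few genes that the rule takes are not reported here. Other genes, among them Nudt5 and Tmem98, were named after their values were seen. The groups, lists and rules were chosen with earlier results of these data known. Depth limits precision most for low genes.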

Additional observations from a re-analysis of the deposited data

Results flagged for a closer look

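Over 27 genes and 6 groups each, 162 sets of libraries were looked at for a library far from the rest, and 8 held one, where chance flags about 1 in 20. In JAK2V617F libraries, Prdx3 was at 284.0 CPM in batch 1 replicate 1, with the next at 214 CPM. Fut8 was at 344.3 CPM in JAK2V617F batch 2 replicate 3, with the next at 436 CPM. Tmem98 was at 133.5 CPM in JAK2V617F Ezh2+/- batch 2 replicate 4, with the next at 111 CPM.

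Among libraries without the mutation, SclCre batch 1 replicate 2 stood apart for Fut8, at 239.3 CPM with the next at 286 CPM, and for Nudt5, at 47.8 CPM with the next at 36.6 CPM. Eif2s1 was at 177.4 CPM in SclCre Ezh2+/- batch 2 replicate 4, with the next at 140.0 CPM. In SclCre Ezh2-/- libraries, Slc25a5 was at 443.4 CPM in batch 2 replicate 3, with the next at 497 CPM, and Upp1 at 54.7 CPM in batch 2 replicate 1, with the next at 88.8 CPM.

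Hbb-b2 and Hbb-bt, which have identical counts, differed in their JAK2V617F change between Ezh2 genotypes (edgeR adjusted p = 0.00754 for each).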

How the results depend on the processing

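The 4 counts of called genes moved by over 1.5 times mainly where fewer libraries were fitted. In batch 1 alone 799 genes were higher and 572 lower, with 421 and 243 small and consistent. In batch 2 alone 1240 were lower, with 764 higher and 644 lower small and consistent ones. In females alone 916 were higher and 765 lower, with 523 and 333 small and consistent. Of the 2447 genes, 2427, 2444 and 2443 had the same sign in these 3 fits. With a spread over genotypes of at most 0.3 in place of 0.5, 732 lower genes remained within the rule. The difference between Ezh2 genotypes, called for 2 genes, was called for 7 with no low-count filter, 17 by DESeq2, 6 by limma-voom and 0 by edgeR in batch 1, batch 2 and females alone, where 585, 817 and 854 genes had an unadjusted p under 0.05. Without 1 library at a time it was called for 0 (without SclCre Ezh2-/- batch 1 replicate 1 or without SclCre Ezh2-/- batch 2 replicate 3, with 816 and 794 at an unadjusted p under 0.05) to 7 genes (without JAK2V617F Ezh2-/- batch 1 replicate 2), while higher genes numbered 1760 to 1953, lower 1741 to 1938, and small and consistent ones 1189 to 1333 higher and 1021 to 1174 lower. The 1 reversed gene was Myc, at -0.16 in batch 1 alone (edgeR adjusted p = 0.624). With the replicate block 1840 genes were higher and 1774 lower, but same-numbered libraries did not deviate together (15 pairs, r of -0.103 to 0.04), so the numbers do not pair the samples. Offsets by GC content and gene length and thinning to equal depth were chosen after seeing the data. Apart from the fits named, the cause of these moves was not tested.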
